A study of Bos taurus with 8 samples.

Results

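The transcripts of 60 factors that build ribosomes in the nucleolus were followed across 8 RNA sequencing libraries of bovine (Bos taurus) embryos. The 60 genes were a fixed list of RNA polymerase I subunits and factors, small nucleolar ribonucleoprotein (snoRNP) proteins, pre-rRNA processing factors and assembly factors. The rule lists them by symbol and uses no measured value, although the list was chosen with earlier results of these data known. All 60 are among the 16606 genes of the deposited table, all had reads in every library, and all 60 passed the filter on low values that 12129 genes passed. The study set control embryos against embryos carrying the edit RPL12A148G, as its labels name it, in RPL12, the gene of a large-subunit ribosomal protein. Oocytes from slaughterhouse ovaries were matured and fertilised in vitro with Holstein semen, and zygotes were injected in the cytoplasm with PEmax, a prime editor (a DNA-nicking Cas9 joined to an enzyme that copies the edit from the guide), and its guide RNA. The 4 groups, each with 2 libraries, are 4-cell control, 4-cell edited, 8-cell control and 8-cell edited, and the protocol states that 5 embryos were lysed per stage and group. Sample titles call the edited embryos base edited whereas the protocol describes prime editing, and the source of the 4-cell samples is labelled as oocytes whereas their titles call them embryos, as they are called here. It is not stated whether controls were injected, what share of alleles carried the edit, or whether pools of a group came from separate fertilisations, so p-values measure only the spread between these libraries.

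Ribosome production begins in the nucleolus, where RNA polymerase I transcribes the ribosomal DNA into 1 long precursor RNA. Box C/D snoRNPs methylate that RNA and box H/ACA snoRNPs convert uridines in it to pseudouridine, each at sites chosen by a guide RNA. The small-subunit processome folds and cuts the part that becomes the small (40S) subunit, a separate set of factors assembles the large (60S) subunit, and late factors carry both through export and final cutting. In early cattle embryos ribosomes and most mRNA are inherited from the egg, and the embryo's own major transcription and its working nucleoli appear around the 8-cell stage.

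Each library held 33527531 to 35122409 reads assigned to genes, so 3 reads correspond to 0.0858 to 0.0899 CPM (read counts scaled close to the library total, the deposited unit, which is not adjusted for gene length). Every member had a mean of at least 2.53 CPM over the 8 libraries. All 14 oocyte and early embryo markers were detected in every library. The 4-cell control libraries stood apart: those 14 markers summed to 19939 and 26287 CPM in them and to between 37725 and 57936 CPM in the other 6. Transcripts listed as markers of the somatic cells that surround the oocyte, cumulus and granulosa cells, were also detected. Whether they came from such cells was not tested. The 20 markers of these cells summed to 1947 and 1494 CPM in controls of the 4-cell stage and to 642 and 621 CPM in edited embryos. The sums were 711 and 1043 CPM in the controls of the 8-cell stage and 630.2 and 626 CPM in its edited embryos. At the 4-cell stage 11 of the 18 that could be tested passed limma's test (a linear model fitted to all genes, described further on) as lower in edited embryos and 2 as higher, and 5 and 0 did so in 8-cell embryos (with 10 at an unadjusted p under 0.05 in either direction there). The 5 immune cell markers, of which 4 are in the table, summed to at most 12.4 CPM, and the 6 epithelial and stromal markers to between 49.1 and 382 CPM, highest in the 4-cell controls. LHCGR, the receptor of luteinising hormone, was at 0 in 5 libraries and at most 0.0578 CPM and FOXL2, a granulosa transcription factor, at most 0.464 CPM. RPL12 itself stood at 159 and 174 CPM in controls and 27.5 and 33.6 in edited embryos of the 4-cell stage, and at 96.3 and 97.6 against 14.1 and 11.9 CPM in 8-cell embryos, so every edited library was below every control.

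The first question was whether editing RPL12 went with a change in these factors. A difference is given as edited minus control on the log2(CPM + 1) scale, which understates the change of weakly expressed genes, and a gene is called when limma's p-value, adjusted by the Benjamini-Hochberg method over all 12129 genes, is under 0.05. At the 4-cell stage the 60 factors split: 14 were called higher in edited embryos (23.3%), 15 lower (25%) and 31 not called. Over all genes tested 18.9% were called higher and 25.8% lower, so these shares lie near the background. With TMM factors, a scaling that trims extreme genes, the split was 19 higher and 13 lower. The median difference of the 60 was 0.01 against -0.02 for all genes, with quartiles of -0.66 and 0.56 against -0.92 and 0.62. At the 8-cell stage 10 members were called lower (16.7%, against a background of 14.5%) and 0 higher (against 1.08%), with a median of -0.01 against 0.00 for all genes. By limma 2 members were higher at that stage at an unadjusted p under 0.05, and edgeR and DESeq2 also called 0. In these pooled embryos, fewer cells of a type and less RNA per cell cannot be told apart.

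In all, 7 members were called lower at both stages: POLR1C, NOP56, NHP2, NOP10, NOP16, GNL3 and MRTO4. The share of all genes called lower at both stages was not counted. Differences at the 2 stages correlated at r = 0.72 over all genes tested and at 0.56 over the members. The 14 called higher at the 4-cell stage were POLR1B, NPM1, DDX21, UTP18, UTP20, WDR75, HEATR1, MPHOSPH10, DDX10, LTV1, RIOK1, NIP7, NMD3 and SBDS, and none of them was called at the 8-cell stage in the fit used here. With only the compared libraries in the fit, NIP7, WDR75 and NMD3 were called higher at the 8-cell stage too, and NIP7 and WDR75 were without either 4-cell control library. A further 8 members were called lower at the 4-cell stage only (FBL, UTP4, IMP3, IMP4, DDX47, NOB1, PES1 and RRP1), 3 at the 8-cell stage only (POLR1D, NOP58 and NSA2), and 28 at neither. Of the 60, 9 members lay lower in all 4 edited libraries than in all 4 controls, namely the 7 lower at both stages, POLR1D and FBL (over all genes 19.6% of those tested did so). The reverse held for 8 members, RRN3, WDR75, BYSL, LTV1, RRS1, NIP7, NMD3 and SBDS (9.98% over all genes). The 60 genes summed to between 6646 and 8174 CPM in each library.

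The 4-cell calls stand beside the 11 cumulus and granulosa markers that were lower in the same edited libraries, and the markers and the edit cannot be told apart there. With the mean log2 level of the markers as a covariate, 0 members were called at the 4-cell stage in either direction, and 2 of all 12129 genes. By limma 8 members and 1577 of all genes had an unadjusted p under 0.05 there. The covariate fit was not run with edgeR or DESeq2. At the 8-cell stage NOP16 alone of the members was called with the covariate, beside 3 genes called higher and 58 lower over all genes. An unadjusted p under 0.05 was found there for 3 members and 1095 of all genes. All 29 differences called at the 4-cell stage kept their sign with the covariate. Their median size was 0.95 with it and 1.05 without it, while the median standard error was 0.62 against 0.25. Single genes moved more: NOP10 went from -1.30 to -0.51 and IMP3 from -2.23 to -1.07, whereas FBL went from -1.79 to -1.84 and POLR1C from -2.41 to -2.68. Leaving out some of the libraries lowered the counts as well, among the members and over all genes tested. The members called higher at the 4-cell stage numbered 6 without 4-cell control replicate 1 and 8 without either 4-cell edited library. Those called lower at the 8-cell stage numbered 6 without 8-cell control replicate 1 or edited replicate 2, and 4 without 8-cell control replicate 2 or edited replicate 1. Of the 29 calls at the 4-cell stage 17 were lost with the covariate alone (POLR1C, FBL, NOP56, NHP2, NOP10, UTP4, UTP20, WDR75, HEATR1, IMP3, IMP4, DDX10, DDX47, NOP16, GNL3, NMD3 and MRTO4), and the other 12 also without at least 1 of the libraries. At the 8-cell stage NOP16 kept its call in all 18 alternatives, NOP10 and GNL3 lost theirs with the covariate alone, and the other 7 lost theirs also without at least 1 library. None of the alternatives run turned the direction of a called member.

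**Figure D1:**
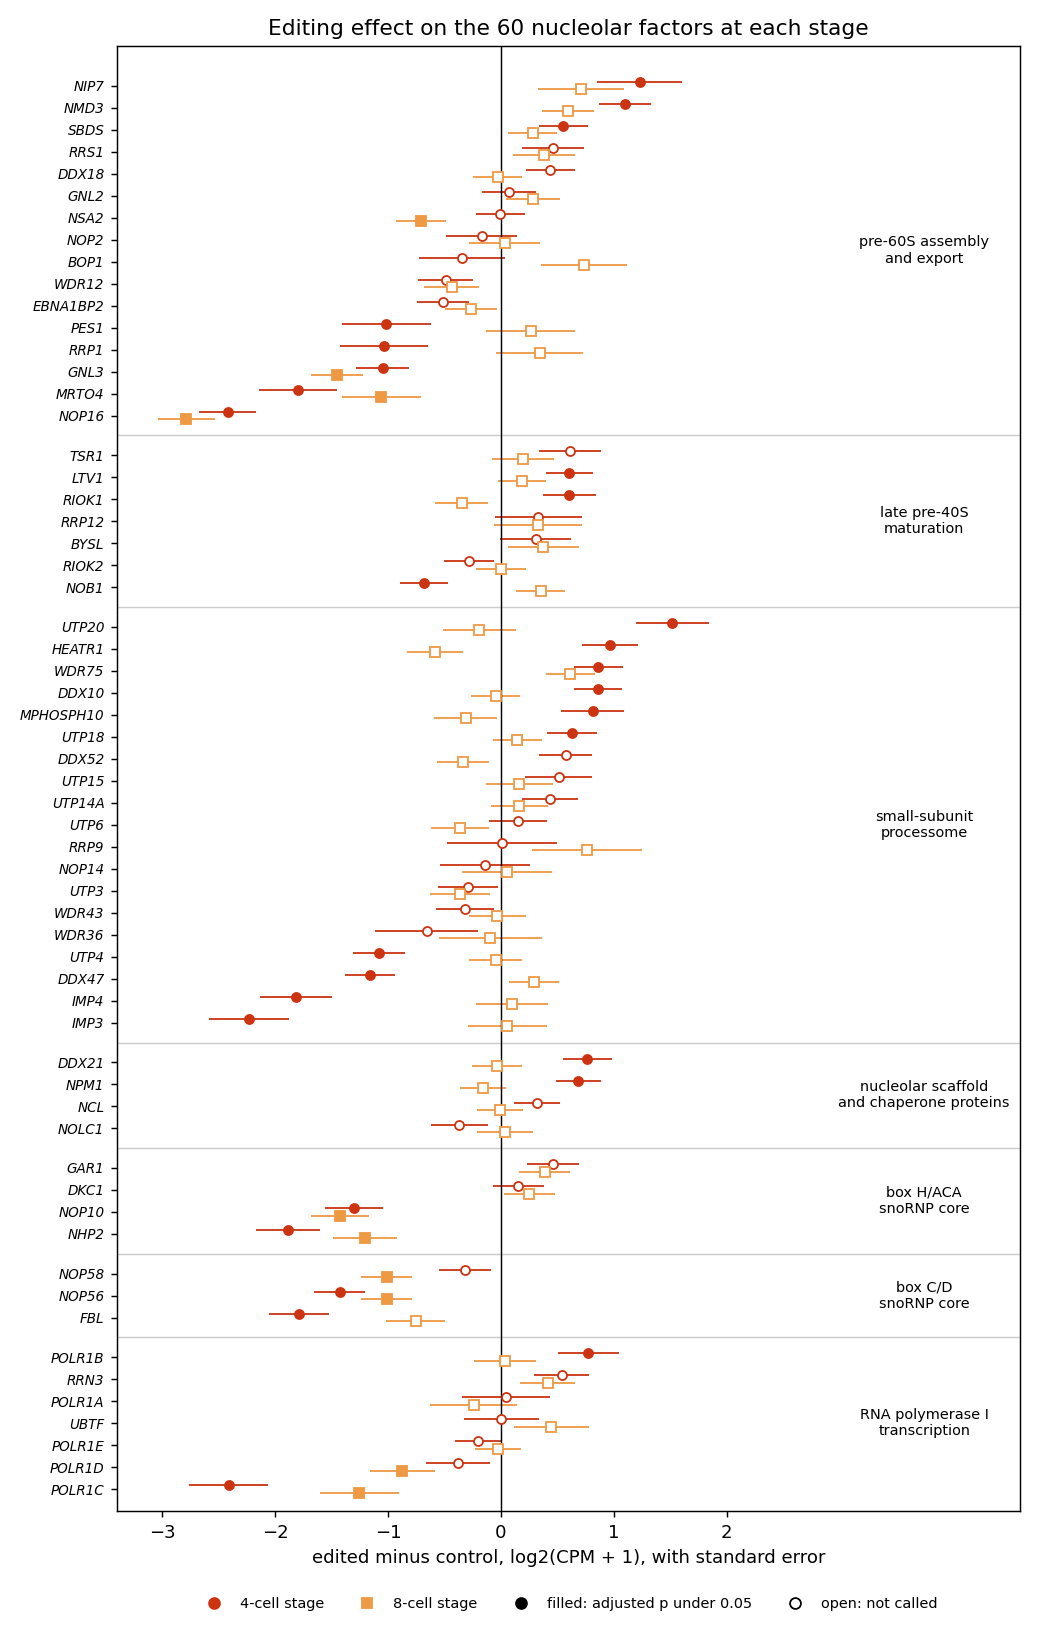
Difference between edited and control embryos (horizontal axis, log2(CPM + 1)) for each of the 60 genes, grouped by role, at the 4-cell stage (circles) and the 8-cell stage (squares). Bars are limma standard errors and filled symbols are adjusted p under 0.05. Filled symbols lie on both sides of 0 at the 4-cell stage (14 higher, 15 lower) and only below 0 at the 8-cell stage (10 lower).

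RNA polymerase I was represented by 5 subunits and 2 transcription factors. Of these 1 was called higher and 1 lower at the 4-cell stage, against 18.9% and 25.8% of all genes. At the 8-cell stage 2 were called lower, against 14.5%. POLR1C, a subunit that RNA polymerase I shares with RNA polymerase III, stood at 36.3 and 25.9 CPM in 4-cell control libraries and at 5.47 and 4.47 in edited ones. In 8-cell embryos it stood at 10.1 and 10.9 CPM in controls and 3.20 and 4.52 in edited libraries. The edited libraries were thus below the controls at each stage, with differences of -2.41 (SE 0.350, adjusted p = 5.74e-05) and -1.26 (adjusted p = 0.0201). POLR1D, the other small subunit shared with RNA polymerase III, was called at the 8-cell stage, where it stood at 32.8 and 39.9 CPM in controls and 22.1 and 16.8 in edited libraries (-0.87, SE 0.284, adjusted p = 0.0479). POLR1B, the second-largest subunit, went the other way at the 4-cell stage, with 31.1 and 52.2 CPM in controls and 63.4 and 76.6 in edited libraries (0.78, SE 0.272, adjusted p = 0.0293); without control replicate 1 the difference was 0.41 and was not called. Its 8-cell libraries, 64.5 and 55.02 CPM in controls and 60.96 and 61.2 in edited ones, overlapped. The largest subunit POLR1A (5.51 to 11.2 CPM over the 8 libraries), POLR1E (336 to 454 CPM) and UBTF, which binds the ribosomal gene promoter (10.6 to 17.6 CPM), were not called at either stage. RRN3, which recruits the polymerase to the promoter, was not called either, although its 4 edited libraries (87.9 and 86.1 CPM at the 4-cell and 97.1 and 97.4 at the 8-cell stage) all lay above its 4 controls (49.8 and 71.3 CPM, then 79.9 and 65.9 CPM).

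Of the 3 box C/D core proteins, FBL and NOP56 were called lower at the 4-cell stage, and NOP56 and NOP58 at the 8-cell stage (over all genes 25.8% and 14.5% were). Their summed level was 561 and 527 CPM in the controls and 285 and 316 CPM in the edited libraries of the 4-cell stage, and 399 and 416 against 187 and 224 at the 8-cell stage, so controls exceeded edited embryos 1.81-fold and 1.98-fold. FBL, the methyltransferase of the complex, stood at 93.4 and 85.8 CPM in 4-cell control libraries and 29.3 and 21.6 in edited ones, a difference of -1.79 (SE 0.262, adjusted p = 6.27e-05). Its 8-cell libraries stood at 38.9 and 45.9 CPM in controls and 23.9 and 25.3 in edited embryos, which did not overlap but missed the threshold (-0.76, SE 0.262, adjusted p = 0.0637). NOP56, a scaffold of the complex, stood at 215 and 209 against 89.3 and 68.5 CPM at the 4-cell stage and 161 and 159 against 74.2 and 83.7 CPM at the 8-cell stage, and was called at each (-1.43 and -1.01, adjusted p = 0.000105 and 0.00421). Its paralogue and partner NOP58 was called at the later stage. At the 4-cell stage NOP58 stood at 252 and 232 CPM in controls and 167 and 226 in edited libraries, and was not called (adjusted p = 0.277). At the 8-cell stage it stood at 199 and 211 against 88.8 and 115 CPM (-1.01, SE 0.228, adjusted p = 0.00508). The test of the difference between the 2 stages did not pass for NOP58 (-0.69, adjusted p = 0.210), so the timing is not shown to differ.

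Of the 4 box H/ACA core proteins, 2 were called lower at each stage and 2 were not called. Over all genes 25.8% were called lower at the 4-cell stage and 14.5% at the 8-cell stage. NHP2, an RNA-binding core protein, stood at 236 and 200.4 CPM in 4-cell control libraries and 73.5 and 45.7 in edited ones, and at 113 and 151 against 70.4 and 44.96 CPM at the 8-cell stage (-1.89 and -1.20, adjusted p = 7.58e-05 and 0.00691). NOP10, a small protein that contacts the catalytic subunit, stood at 128 and 113 against 49.3 and 47.1 CPM and at 71.7 and 109 against 35.6 and 29.2 CPM (-1.30 and -1.43, adjusted p = 0.000759 and 0.000857). For both genes each edited library lay below each control library. DKC1, the pseudouridine synthase itself, stood at 200.4 and 232 against 278 and 207 CPM in 4-cell embryos and at 236 and 215 against 303 and 238 CPM in 8-cell embryos, and was not called (adjusted p = 0.614 and 0.519). GAR1, the fourth core protein, stood at 56.04 and 56.1 CPM in 4-cell controls and 83.9 and 71.6 in edited libraries, and at 67.7 and 73.05 against 95.1 and 89.6 CPM at the 8-cell stage. GAR1 edited libraries were above the controls of the same stage, and neither difference was called (0.46 and 0.39, adjusted p = 0.113 and 0.300).

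**Figure D2:**
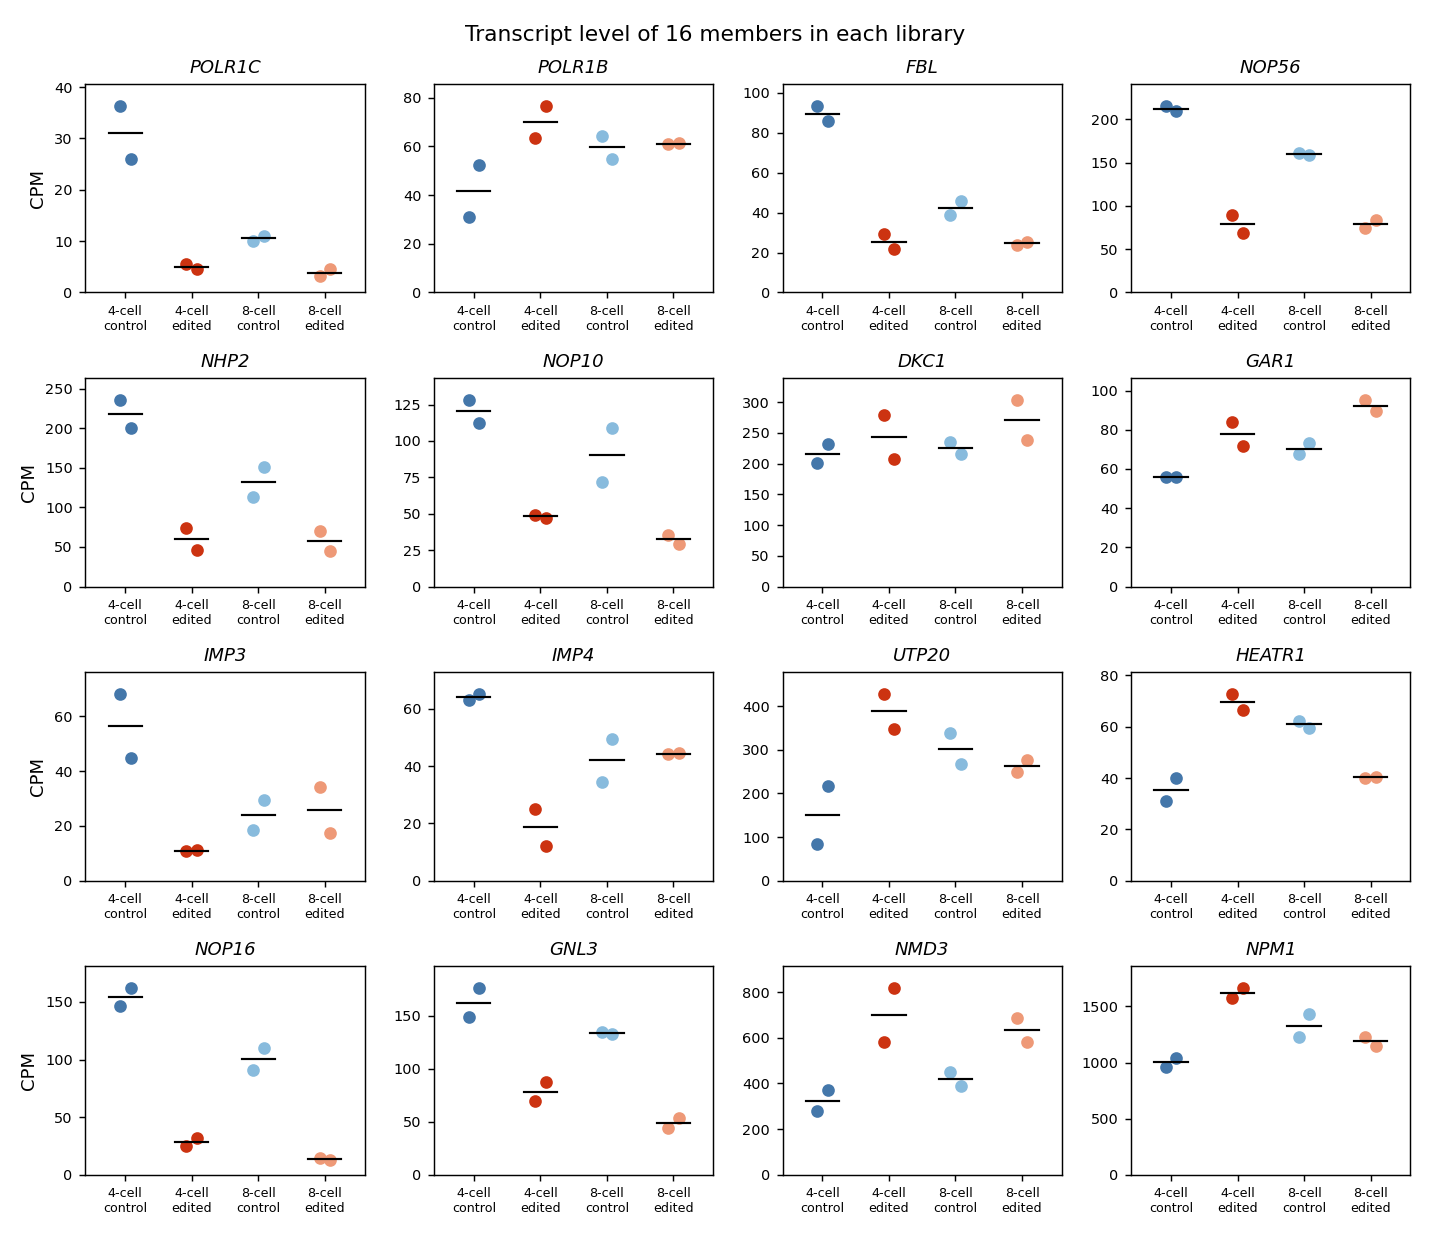
CPM of 16 of the genes in each of the 8 libraries (points, 2 per group) with the group mean (line); each vertical axis starts at 0 and has its own scale. NOP16, NOP56, NHP2, NOP10 and GNL3 are lower in edited than in control libraries at both stages, IMP3 and IMP4 only at the 4-cell stage by the calls, and DKC1 shows no called difference.

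Of the abundant nucleolar proteins, 2 of 4 were called higher at the 4-cell stage, against 18.9% of all genes. At the 8-cell stage 0 were called (0 at an unadjusted p under 0.05 by limma, and 0 by edgeR and DESeq2). The shares of all genes there were 1.08% higher and 14.5% lower. NPM1, a histone and ribosomal protein chaperone that helps the nucleolus condense, stood at 963 and 1044 CPM in 4-cell controls and 1572 and 1660.3 in edited libraries (0.69, SE 0.202, adjusted p = 0.0113). Its 8-cell libraries stood at 1225 and 1433 CPM in controls and 1229 and 1149.6 in edited embryos and overlapped. DDX21, an RNA helicase of rRNA transcription and processing, stood at 76.96 and 89.1 against 156 and 128 CPM in 4-cell embryos and at 121 and 130.5 against 125 and 119 CPM in 8-cell embryos, so the 4-cell controls were the low group (0.77, SE 0.221, adjusted p = 0.0101). NCL, which binds nascent pre-rRNA, stood at 268 and 293 against 372 and 329.5 CPM and at 339 and 298 against 317 and 313 CPM and was not called at either stage. NOLC1, a snoRNP chaperone, stood at 52.3 and 59.3 against 50.6 and 36.4 CPM and at 57.9 and 57.9 against 61.7 and 57.3 CPM and was not called either. NPM1 has processed copies in mammalian genomes, and reads shared with such copies could have been split by the authors' counting. The library kits named do not keep the strand, so reads of a gene that overlaps a member on the other strand cannot be told apart from the member's.

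Of the 19 members of the small-subunit processome, 6 were called higher (31.6%) and 4 lower (21.1%) at the 4-cell stage, against 18.9% and 25.8% of all genes. At the 8-cell stage 0 were called (limma, with 2 at an unadjusted p under 0.05, and 0 by edgeR and DESeq2), against 1.08% higher and 14.5% lower over all genes. WDR75 was called higher at that stage under the settings named before. UTP20, a large HEAT-repeat protein, stood at 83.3 and 216 CPM in 4-cell controls and 428 and 349 in edited libraries (1.52, SE 0.324, adjusted p = 0.00134). Its 2 control libraries differed from each other more than its edited ones did, and without control replicate 1 the difference was 0.84, which was still called. Its 8-cell libraries stood at 338 and 267 CPM in controls and 249.7 and 276 in edited embryos. HEATR1, which joins the nascent pre-rRNA at the start of assembly, stood at 30.9 and 39.96 CPM in controls and 72.7 and 66.5 in edited libraries (0.97, SE 0.246, adjusted p = 0.00472). WDR75, of the same early subcomplex, stood at 97.1 and 118 against 185 and 206 CPM (0.86, adjusted p = 0.00427). The helicase DDX10 (0.86), MPHOSPH10 (0.81) and UTP18 (0.63) were the other processome members called higher.

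Of the 4 processome genes called lower, 2 encode proteins that bind U3 snoRNA as 1 complex with MPHOSPH10. IMP3 stood at 68.03 and 44.9 CPM in 4-cell controls and 10.7 and 11.3 in edited libraries (-2.23, SE 0.353, adjusted p = 0.000120). IMP4 stood at 62.99 and 65.1 against 25.1 and 12.1 CPM (-1.81, SE 0.317, adjusted p = 0.000282). MPHOSPH10 itself stood at 35.3 and 41.99 CPM in controls and 55.6 and 84.3 in edited libraries, so that the transcripts of the 3 partners were not called in 1 direction (0.81, adjusted p = 0.0263). Without 4-cell edited replicate 2 the difference in MPHOSPH10 was 0.52 and was not called. DDX47, a helicase, stood at 154 and 126 against 59.9 and 63.5 CPM and UTP4, of the early subcomplex that holds HEATR1 and WDR75, at 79.1 and 76.8 against 34.7 and 38.1 CPM (differences of -1.16 and -1.08). At the 8-cell stage IMP3 stood at 18.6 and 29.6 CPM in controls and 34.2 and 17.5 in edited libraries, and IMP4 at 34.5 and 49.6 against 44.2 and 44.5 CPM, with overlapping groups in each case. The other 9 processome genes, NOP14, UTP3, UTP6, UTP14A, UTP15, WDR36, WDR43, RRP9 and DDX52, were called at neither stage. Of these WDR36, RRP9 and NOP14 were weakly expressed, at 1.68 to 10.6 CPM.

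Of the 7 members of late 40S precursor maturation, 2 were called higher and 1 lower at the 4-cell stage, against 18.9% and 25.8% of all genes. At the 8-cell stage 0 were called (limma, with 0 at an unadjusted p under 0.05, and 0 by edgeR and DESeq2). The shares of all genes there were 1.08% higher and 14.5% lower. LTV1, which accompanies the precursor to the cytoplasm, stood at 263 and 342 CPM in 4-cell controls and 435 and 481 in edited libraries (0.61, SE 0.211, adjusted p = 0.0276). The kinase RIOK1 stood at 48.6 and 58.5 against 80.7 and 82.7 CPM, and its adjusted p of 0.0465 was close to the threshold. NOB1, the endonuclease that makes the last cut of 18S rRNA, stood at 133 and 166 CPM in 4-cell controls and 92.9 and 91.8 in edited libraries (-0.68, SE 0.216, adjusted p = 0.0174). RRP12, BYSL, TSR1 and the kinase RIOK2, which act on the same precursor, were not called at either stage, with differences between -0.28 and 0.61 at the 4-cell stage.

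Of the 16 factors of 60S assembly, 3 were called higher (18.8%) and 5 lower (31.2%) at the 4-cell stage, against 18.9% and 25.8% of all genes, and 4 lower (25%) at the 8-cell stage, against 14.5%. NOP16, a nucleolar protein of early 60S precursors, had the largest decrease of the 60 on the log2(CPM + 1) scale at each stage, although in CPM POLR1C was 6.26-fold lower at the 4-cell stage, a larger fold than that of NOP16. It stood at 147 and 162 CPM in 4-cell controls and 24.7 and 31.6 in edited libraries, 5.47-fold lower (-2.42, SE 0.251, adjusted p = 3.00e-06). In 8-cell embryos it stood at 91.1 and 110.3 against 14.5 and 12.9 CPM, 7.35-fold lower (-2.79, SE 0.251, adjusted p = 3.94e-06). These differences were of the size of those of RPL12 itself (-2.41 and -2.81). The summed cumulus and granulosa markers were 711 and 1043 CPM in the 2 control libraries of the 8-cell stage and lower in its edited libraries, and with the marker covariate the 8-cell difference in NOP16 was -2.30 (adjusted p = 0.0422). Over all alternatives it lay between -2.92 and -2.30 with an adjusted p of at most 0.0422.

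GNL3 (nucleostemin), a nucleolar GTPase, stood at 149 and 176 CPM in 4-cell controls and 69.5 and 87.2 in edited libraries, and at 135 and 133 against 43.7 and 53.4 CPM at the 8-cell stage (-1.05 and -1.45, adjusted p = 0.00178 and 0.000317). MRTO4 holds the place of the stalk protein P0 on the precursor, next to the site where RPL12 sits in the finished subunit. It stood at 34.3 and 25.2 against 9.49 and 6.29 CPM at the 4-cell stage and 13.7 and 19.3 against 8.34 and 6.38 CPM at the 8-cell stage (-1.80 and -1.06, adjusted p = 0.000616 and 0.0493). NSA2, a 60S assembly factor, was called at the 8-cell stage alone, at 117 and 133 CPM in controls and 75.9 and 76.05 in edited libraries (-0.71, adjusted p = 0.0376). PES1, BOP1 and WDR12 form 1 complex of 60S assembly. PES1 was called lower at the 4-cell stage (11.7 and 10.6 against 7.87 and 3.07 CPM, -1.01, adjusted p = 0.0467), a call made in 7 of the 18 alternatives, and the difference was -0.45 and not called without edited replicate 2, whereas BOP1 (3.48 and 2.26 against 1.97 and 2.05 CPM) and WDR12 (140.1 and 198 against 98.5 and 142 CPM) were not called. RRP1 stood at 26.5 and 24.4 against 19.9 and 6.96 CPM, with its second edited library far below its first (-1.03, adjusted p = 0.04001); without that library the difference was -0.34, which was not called, and without the first it was -1.73.

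The 3 members called higher at the 4-cell stage were NMD3, NIP7 and SBDS. NMD3, the export adaptor of the 60S subunit, stood at 279.9 and 370.3 CPM in 4-cell controls and 583 and 817 in edited libraries (1.10, SE 0.231, adjusted p = 0.00120). In 8-cell embryos it stood at 449 and 389 against 685 and 581 CPM, without overlap but without a call (0.59, adjusted p = 0.102). NIP7 stood at 19.4 and 64.6 CPM in 4-cell controls, which differed widely from each other, and at 78.8 and 90.8 in edited libraries (1.23, SE 0.379, adjusted p = 0.0149); without control replicate 1 the difference was 0.38 and was not called, and without replicate 2 it was 2.07. SBDS, which helps to release EIF6 from the finished 60S subunit, stood at 227 and 304 against 345 and 432 CPM and passed narrowly (0.55, adjusted p = 0.0497). That call was made in 6 of the 18 alternatives, and without control replicate 1 the difference was 0.35 and was not called. The rRNA methyltransferase NOP2, the GTPase GNL2, the helicase DDX18, RRS1 and EBNA1BP2, with WDR12 and BOP1, were called at neither stage.

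**Figure D3:**
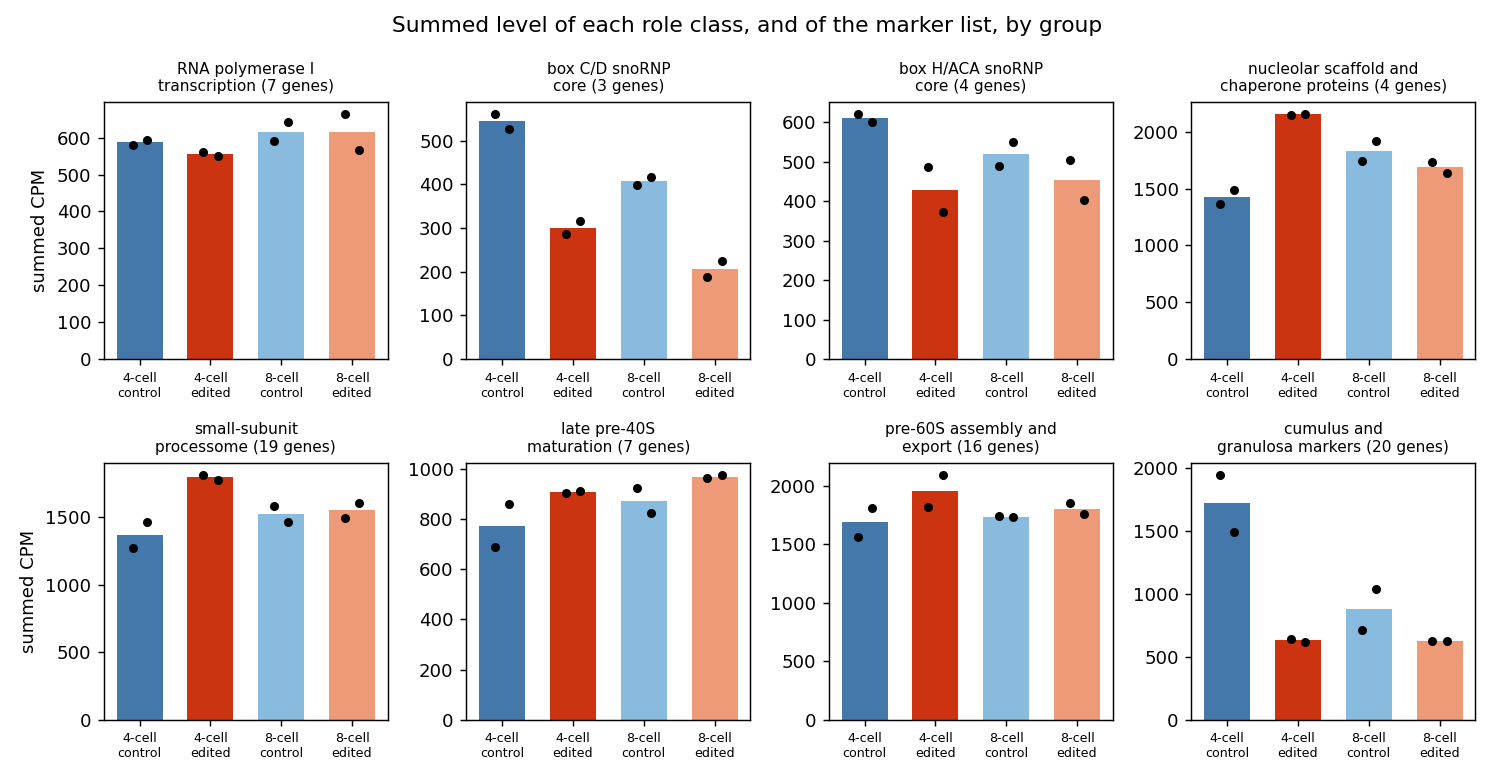
Summed CPM of the genes of each role (bars, group mean of 2 libraries; points, the libraries) and, in the last panel, of the 20 cumulus and granulosa markers. The box C/D sum is lower in edited embryos at both stages (285 and 316 against 561 and 527 CPM at the 4-cell stage), and the marker sum is highest in the 4-cell controls; each axis has its own scale.

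Whether the effect of editing on these genes differed between the stages was tested directly, as the 8-cell difference minus the 4-cell difference. It was called for 5 members (8.33%, against 3.96% of all genes), all of the small-subunit processome in this limma fit. For IMP3, IMP4 and DDX47 it was positive (2.29, 1.91 and 1.45, adjusted p = 0.0298, 0.0350 and 0.0298): these were lower in edited embryos at the 4-cell stage alone by the calls. DDX47 stood at 83.04 and 91.1 CPM in 8-cell controls and 109 and 104 in edited libraries. For UTP20 and HEATR1 the difference between stages was negative (-1.71 and -1.55, adjusted p = 0.0481 and 0.0324). HEATR1 stood at 62.2 and 59.5 CPM in 8-cell controls and 40.2 and 40.4 in 8-cell edited libraries, the reverse of its order at the 4-cell stage, although that 8-cell difference was not called (adjusted p = 0.137). These 5 calls depend on the test and on single libraries. By edgeR 0 members were called, beside 10 positive and 12 negative differences over all 12129 genes. DESeq2 called 8 members, NOB1 and FBL of other roles among them, beside 575 positive and 521 negative over all genes. An unadjusted p under 0.05 was found for 18 members by each tool and 19 by limma. The same held for 2715, 2842 and 2800 of all genes by edgeR, DESeq2 and limma. Each of the 5 calls was lost in several fits with 1 library left out, where fewer of all genes were called too. Over all alternatives UTP20 lay at -2.39 to -1.03 and HEATR1 at -1.73 to -1.37. IMP3 lay at 1.82 to 2.75, IMP4 at 1.41 to 2.41 and DDX47 at 1.31 to 1.60. The difference had the same sign at both stages in 38 of the 60 members (63.3%), against 72.8% of all genes tested.

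**Figure D4:**
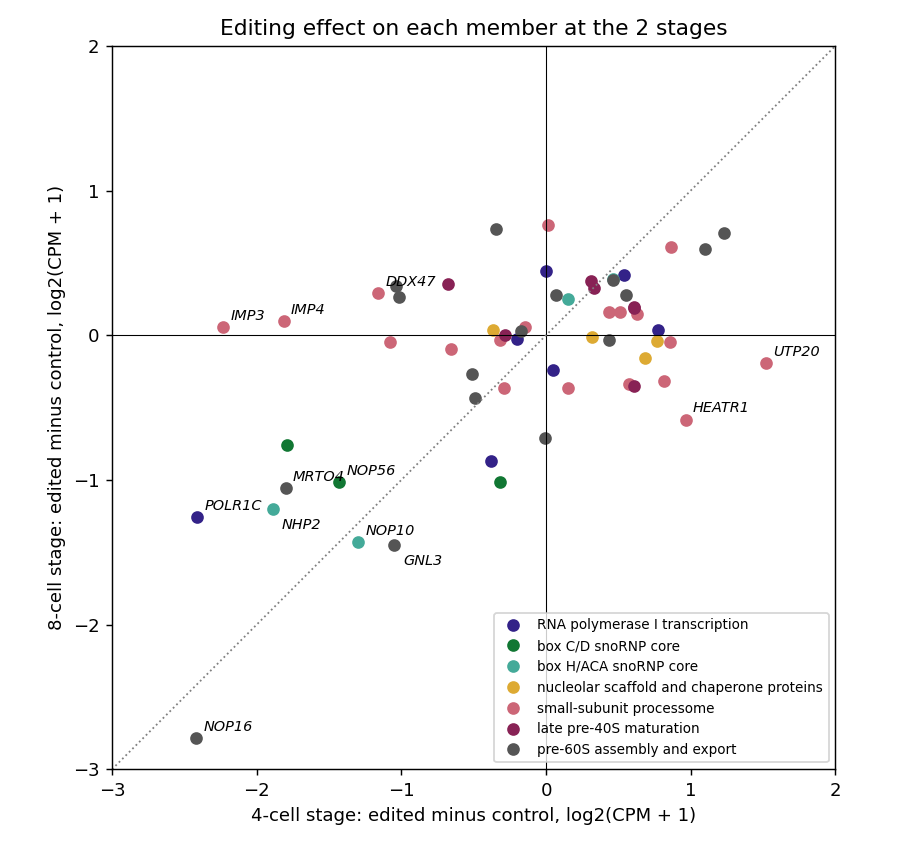
Difference between edited and control embryos at the 4-cell stage (horizontal) against that at the 8-cell stage (vertical), log2(CPM + 1), 1 point per gene, coloured by role, with the dotted line of equal effects. The genes called at both stages, led by NOP16, lie at the lower left; IMP3, IMP4 and DDX47 lie left of 0 on the horizontal axis and near 0 on the vertical, and UTP20 and HEATR1 to the right.

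The stages were also compared within controls and within edited embryos. In control embryos 1 member was called higher and 3 lower in 8-cell than in 4-cell embryos (1.67% and 5% of the 60, against 2.75% and 6.27% over all genes). An unadjusted p under 0.05 was found for 12 of the 60 and for 3568 of all 12129 genes. UTP20 was higher, from 83.3 and 216 to 338 and 267 CPM (1.16, SE 0.324, adjusted p = 0.0396). POLR1C went from 36.3 and 25.9 to 10.1 and 10.9 CPM, FBL from 93.4 and 85.8 to 38.9 and 45.9 CPM and IMP3 from 68.03 and 44.9 to 18.6 and 29.6 CPM, with differences of -1.46, -1.07 and -1.20 (adjusted p = 0.0239, 0.0261 and 0.0452). These use the same 4-cell control libraries as the 4-cell comparison, and the marker sum was lower in the 8-cell controls too. In edited embryos 2 members were called higher and 2 lower at the 8-cell stage (3.33% in each direction, against 1.45% and 3.73% over all genes). There 19 members and 2604 of all 12129 genes had an unadjusted p under 0.05. IMP4 rose from 25.1 and 12.1 to 44.2 and 44.5 CPM and NOB1 from 92.9 and 91.8 to 183 and 179 CPM (1.29 and 0.96, adjusted p = 0.0309 and 0.0213). NOP58 went from 167 and 226 to 88.8 and 115 CPM and NOP16 from 24.7 and 31.6 to 14.5 and 12.9 CPM (-0.93 and -0.98, adjusted p = 0.0307 and 0.0360). These counts rest on single libraries. In controls 0 were called in either direction without 4-cell control replicate 1 or 8-cell control replicate 1, and 6 higher and 4 lower without 4-cell control replicate 2. In edited embryos 0 were called in either direction without 4-cell edited replicate 2 or without either 8-cell edited library. With no filter on low values 0 of the 60 were called by limma. Of all 16586 genes then tested, 1 was called higher and 0 lower in controls, and 8 and 9 in edited embryos. An unadjusted p under 0.05 was found for 12 members in controls and 18 in edited embryos. Over those 16586 genes it was found for 3755 and 2784.

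Another 124 genes of ribosome production that are not among the 60 were listed for comparison, of which 123 are in the table and 119 were tested. Edited 4-cell embryos had 19 of these called higher (16%) and 28 lower (23.5%), and edited 8-cell embryos 0 higher and 15 lower (12.6%), again near the background of all genes. By limma 2 were higher at the 8-cell stage at an unadjusted p under 0.05, and edgeR and DESeq2 called 0. Medians were -0.11 and -0.10. Those called at the 4-cell stage numbered 9 higher and 18 lower without 4-cell control replicate 1, and those called at the 8-cell stage 8 without 8-cell control replicate 2 and 9 without edited replicate 1. EIF6, which keeps the 60S subunit from joining the 40S too early, stood at 344 and 343 CPM in 4-cell controls and 38.2 and 43.5 in edited libraries, and at 123 and 200.1 against 64.9 and 42.4 CPM at the 8-cell stage (-3.05 and -1.57). BUD23, the methyltransferase of 18S rRNA, stood at 2308 and 2502 against 447 and 310.5 CPM and 679 and 1059 against 329.8 and 327 CPM (-2.69 and -1.37). POP5, a protein of the nuclease RNase MRP, stood at 142 and 129 against 18.5 and 23.5 CPM and at 71.7 and 84.05 against 14.6 and 10.5 CPM and was called lower at each stage (-2.64 and -2.55). TAF1D, of the promoter factor of RNA polymerase I, was called at the 8-cell stage, at 13.6 and 11.97 CPM in controls and 2.30 and 0.479 in edited libraries (-2.64, SE 0.426, adjusted p = 0.000338). The increases with the smallest p-values at the 4-cell stage were those of UTP23 (205 and 181 against 602 and 464 CPM, 1.45), the kinase RIOK3 (459.8 and 631 against 1314 and 1564 CPM, 1.41) and the exosome subunit EXOSC8 (177 and 136 against 389 and 352 CPM, 1.25). UTP23, a factor of early 18S rRNA processing, was called lower at the 8-cell stage, where it stood at 383 and 379 CPM in controls and 255 and 233 in edited libraries (-0.64, adjusted p = 0.0496). That 8-cell call was lost without any 1 of the 4 libraries of the stage, and edgeR and DESeq2 did not make it.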

How the data were processed

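Embryos were lysed in pools, mRNA was captured and amplified with a Smart-seq kit and libraries were made by tagmentation, per the labels' protocols; 8 libraries in 4 groups of 2 were used. The deposited table gives CPM (counts scaled by the authors, as deposited, although the table is named for raw counts). Its values sum to between 992528 and 1007024 per library, so the scaling was close to each library's total but not exactly to it. What else entered the scaling was not tested. Trim Galore 0.6.7, HISAT2 2.2.1 and featureCounts 2.0.1 are named per the submitters' processing notes; their settings and the genome build are not given in the sources used here. Of 12 columns of values, 8 match a sample's library name in the labels and 4 were not used. All positive values were whole multiples of 1 read per library (within 0.05 reads), so reads were recovered: 33527531 to 35122409 per library. In a chi-square test of recovered reads between the 2 libraries of a group, the statistic per degree of freedom was 46.1 (8-cell edited) to 144 (4-cell control). Read counting error alone would give about 1. How many separate molecules the amplified reads stand for was not measured.

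limma 3.58.1 (R 4.3.3), with an intensity trend, was fitted to log2(CPM + 1) of the 12129 genes whose mean reached 1 CPM, over all 8 libraries with 1 mean per group, and p-values were adjusted by Benjamini-Hochberg over all genes; 0.05 was the threshold. Every adjusted p in the text comes from that limma fit unless another tool is named. edgeR 4.0.16 (quasi-likelihood) and DESeq2 1.42.0 were run on the recovered reads as alternatives, with pseudocounts of 5 and 0.25, no filter, TMM factors (a scaling that trims extreme genes), only the libraries compared, the replicate number as a block, a covariate of the mean log2 level of the cumulus and granulosa markers, and each library left out. The scripts were tested on simulated data. Members, marker lists (cumulus and granulosa, oocyte and early embryo, immune, epithelial and stromal) and the list of 124 other pathway genes were chosen with earlier results of these data known. RRP7A was matched through a RefSeq synonym (ARS-UCD2.0 gene table, names only). Library values are given for the called members with the smallest p-value in each role, direction and comparison, for all members of roles of 4 or fewer, and for the other pathway genes with the smallest p-values (3 per direction at the 4-cell stage, 2 at the 8-cell stage); other members shown by library were added after their values were seen.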

Additional observations from a re-analysis of the deposited data

Results flagged for a closer look

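For 5 of the 60 factors and 8 of the 119 other pathway genes tested (480 of all 12129 genes, 3.96%), the effect of editing differed between the stages by limma's test of the 8-cell difference minus the 4-cell difference. Among the 60 factors this was -1.71 for UTP20 (adjusted p = 0.0481), -1.55 for HEATR1 (adjusted p = 0.0324), 2.29 for IMP3 (adjusted p = 0.0298), 1.91 for IMP4 (adjusted p = 0.0350) and 1.45 for DDX47 (adjusted p = 0.0298), on the log2(CPM + 1) scale. Among the other pathway genes named, it was -2.09 for UTP23 (adjusted p = 0.00681), 1.48 for EIF6 (adjusted p = 0.0424) and 1.32 for BUD23 (adjusted p = 0.0434). The 4-cell control libraries, which hold the highest summed cumulus and granulosa marker levels, enter each of these values. With the covariate of those markers 0 of the 60 were called, and of these 3 pathway genes UTP23 alone was (-2.03, adjusted p = 0.0163). UTP23 was called in 14 of 17 alternatives, and not with no filter or without either 4-cell edited library. EIF6 was called in 6 and BUD23 in 5 of the 17, and neither with TMM factors, edgeR, no filter, the covariate or 6 of the 8 single libraries left out. EIF6 and BUD23 were lower in edited embryos at both stages, by less at the 8-cell stage.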

How the results depend on the processing

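With the marker covariate the members called at the 4-cell stage numbered 0 higher and 0 lower, those at the 8-cell stage 1 lower, those between stages 0 in controls and 0 in edited embryos in each direction, and those with an effect that differed between stages 0; the other pathway genes numbered 0 higher and 0 lower in 4-cell embryos and 1 lower in 8-cell embryos. With only the libraries compared, 9 members were called higher at the 4-cell stage and 3 (NIP7, WDR75 and NMD3) at the 8-cell stage. Under that setting 0 were higher and 0 lower between stages in controls, 4 lower between stages in edited embryos, and 1 other pathway gene higher at the 8-cell stage; the difference between stages needs all 4 groups and was not run under that setting. TMM factors moved the median of the members at the 4-cell stage to 0.11 and the split to 19 higher and 13 lower, with the median of all genes at 0.08 against -0.02.

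Between stages in controls, members called higher numbered 2 with a pseudocount of 5, 0 with 0.25, 0 with no filter, 0 with edgeR and 2 with DESeq2, and members called lower 0 with no filter and 5 with DESeq2. Between stages in edited embryos, members called higher numbered 0 with no filter and 4 with DESeq2, and members called lower 1 with a pseudocount of 5, 0 with no filter, 1 with edgeR and 5 with DESeq2. An effect that differed between stages was called for 0 members with no filter, 0 with edgeR and 8 with DESeq2. Over all genes those calls numbered 0 with no filter, 10 positive and 12 negative with edgeR, and 575 and 521 with DESeq2. The causes of these shifts were not tested.

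Replicate numbers are shared by the groups, and the meaning of a number is not given. The library names carry letters that differ for replicate 1: A in 4-cell controls, B in 8-cell controls and C in both edited groups. Replicate 2 is D in every group. Deviations of same-numbered libraries from their group means correlated at 0.11 between 4-cell control and edited, -0.09 between 8-cell control and edited, -0.30 between the controls and 0.02 between the edited groups. With the replicate block 12 members were called higher and 15 lower among 4-cell embryos, 0 and 7 among 8-cell embryos, 1 and 3 between stages in controls, 2 and 2 in edited embryos, and 5 for the difference between stages. With the 8-cell control numbers crossed, an alternative chosen after seeing the data, the paired counts between stages were 2 higher and 5 lower in controls and 4 higher in edited embryos, and 1 other pathway gene was higher at the 8-cell stage.

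Leaving out each library in turn gave 6 to 17 members higher and 12 to 14 lower at the 4-cell stage with a median between -0.11 and 0.25, 0 to 2 higher (NIP7 and WDR75) and 4 to 10 lower at the 8-cell stage, 0 to 6 higher and 0 to 4 lower between stages in controls, 0 to 3 higher and 0 to 5 lower in edited embryos with a median between -0.14 and 0.045, and 0 to 8 for the difference between stages. The other pathway genes numbered 9 to 20 higher and 18 to 28 lower at the 4-cell stage and 8 to 15 lower at the 8-cell stage. A group left with 1 library is assumed to vary like the others. Over single genes and all alternatives, 2510 values kept their side of the threshold, 318 fell short of it, 26 passed it and 0 called values turned. Each member had reads in every library, and the weakest, BOP1, stood at 1.46 to 3.80 CPM.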
